A study of Rattus norvegicus with 9 samples.

Results

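The genes of elastic fibres and microfibrils were followed in cultured synovial fibroblasts of the rat, which make the matrix of the joint lining. The 10 genes, Eln, Fbn1, Fbn2, Fbln1, Fbln2, Fbln5, Efemp2, Mfap4, Mfap5 and Emilin1, were picked by symbol from the 17298 genes of the expression table, without use of their values. All 10 were present, and all 10 had the mean of at least 1 FPKM over the 9 libraries that was asked of every gene tested. FPKM count fragments relative to the length of the transcript and to all fragments mapped in the library. The cells were wild type (WT) and fell into 3 groups of 3 libraries. In the co-culture group, cells given IL-1β, an inflammatory cytokine of arthritic joints, shared a transwell with dermal fibroblasts, which sat in the upper chamber behind a porous membrane. The IL-1β group received IL-1β in normal culture, and the control group was kept in normal culture with no IL-1β. The labels give no strain, age, dose or time. Nor do they state whether replicates are different animals or cultures, and the p-values therefore rest on a spread between libraries that may be technical. No group had dermal fibroblasts without IL-1β, and whether the other groups carried an empty insert is not stated.

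Elastic fibres let tissues stretch and recoil. Tropoelastin, the product of Eln, is laid down as a crosslinked core on a scaffold of microfibrils, which are built from fibrillins. Fibulins, EMILIN and microfibril-associated proteins join elastin, microfibrils and cells to each other, and lysyl oxidases crosslink the elastin. Microfibrils also hold latent TGF-β complexes in the matrix, and in the joint elastic fibres occur in the capsule and in the tissue beneath the synovial lining.

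Each gene was read from 1 limma fit over the 11372 genes that passed the filter, on log2(FPKM + 1), with Benjamini-Hochberg adjustment over all of them and a threshold of 0.05. Log2 fold changes are on that scale, where the pseudocount shrinks the changes of low genes, and errors on them are standard errors. Folds are ratios of mean FPKM. The sequencing depth is unknown. The FPKM summed to 679774 to 741810 per library, and no library stood apart from its group (rank correlations across genes of 0.9946 to 0.9959 within groups and 0.9584 to 0.9912 between them). FPKM are shares of a library, so a strong rise of other genes lowers every value. All 12 fibroblast and synovial markers listed passed the filter, summing to 12346 to 12565 FPKM in co-culture, 11602 to 11777 FPKM with IL-1β and 13435 to 13999 FPKM in control. These sums hide changes in both directions. With IL-1β 6 of the 12 were higher and 6 lower than in control, where 20.5% of all genes tested were higher and 31.2% lower. The markers of endothelium, of which 9 of 10 were in the table and 0 passed the filter, summed to at most 2.03 FPKM in any library.

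The RefSeq promoter table of the rat assembly GRCr8 held 6 of the 10 genes (Fbn1, Fbn2, Fbln2, Fbln5, Efemp2 and Mfap5). The 250 bases before the annotated start are printed for 3 of them, 5′ to 3′ on the gene's strand: Mfap5, the gene of the 6 with the greatest fall under IL-1β, Fbln5, which fell too, and Efemp2, for which no difference passed the threshold. RefSeq places other loci over parts of Eln, Fbn1, Fbn2 and Fbln1, and because the use of strand is not stated, reads of such loci cannot be told apart from theirs. Capitals mark the GC box, GGGCGG on either strand.
Mfap5, chr4:157399669-157399918 on the plus strand: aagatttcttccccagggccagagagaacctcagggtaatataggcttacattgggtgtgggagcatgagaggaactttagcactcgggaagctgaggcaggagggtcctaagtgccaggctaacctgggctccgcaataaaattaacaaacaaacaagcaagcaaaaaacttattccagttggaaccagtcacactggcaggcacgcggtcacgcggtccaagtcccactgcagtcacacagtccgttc
Fbln5, chr6:126742707-126742956 on the minus strand: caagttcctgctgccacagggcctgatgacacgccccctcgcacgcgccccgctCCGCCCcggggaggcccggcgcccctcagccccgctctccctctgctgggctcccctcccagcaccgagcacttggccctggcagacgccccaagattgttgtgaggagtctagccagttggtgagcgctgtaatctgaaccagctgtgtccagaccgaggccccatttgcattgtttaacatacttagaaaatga
Efemp2, chr1:212211472-212211721 on the plus strand: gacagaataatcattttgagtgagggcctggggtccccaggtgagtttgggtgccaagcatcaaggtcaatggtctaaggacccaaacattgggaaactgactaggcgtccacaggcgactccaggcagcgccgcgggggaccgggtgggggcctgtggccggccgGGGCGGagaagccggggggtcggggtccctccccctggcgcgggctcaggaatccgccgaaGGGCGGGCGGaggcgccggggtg
The GC box occurred 0 times in the Mfap5 window, 1 time in that of Fbln5 and 3 times in that of Efemp2, where the last 2 overlap. Among the 6 windows 3 held it (Fbln2, Fbln5 and Efemp2), as did 32.4% of 27457 windows of the same length. The Mfap5 window was 51.6% G and C, close to the median of 52.0% over all windows, and the other 5 ranged between 63.2% and 71.2%, above the upper quartile of 60.8%. The motif of NF-kB, taken as GGG and TTTCC parted by any 2 bases and present in 1.28% of windows, and that of AP-1, TGANTCA, present in 6.36%, were found in 0 of the 6. The same was true of the TATA box TATAAA (13.1% of windows), the C/EBP motif TTGCNNAA (9.2%), the SMAD motif GTCTAGAC (0.186%) and the CArG box (1.5%), all sought on both strands. The M-CAT motif CATTCC (11.8% of windows) occurred in the Fbn2 window. A match is a description of the letters and not of binding.

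The comparison of IL-1β with control asks how the cytokine alters the cells. Under IL-1β the transcripts of Eln, Fbn1, Fbn2, Mfap5, Fbln2 and Fbln5 were lower, whereas those of Emilin1 and Fbln1 were higher. Eln was 5.12-fold lower than in control and Mfap5 2.92-fold lower. Fbn2, Fbln5, Fbln2 and Fbn1 fell too, by smaller factors down to 1.28-fold for Fbn1. Emilin1 was 1.64-fold and Fbln1 1.55-fold higher, and Efemp2 and Mfap4 did not pass the threshold. Of the 10 genes 6 were lower and 2 higher, where 31.2% of all genes tested were lower and 20.5% higher (51.7% in all). The median log2 fold change of the 10 was -0.73, and that of all genes tested was -0.04. Of all the calls 39.7% were of higher genes, a share that became 50.1% when the libraries were scaled by median of ratios (2887 higher and 2877 lower). The counts of 6 and 2 among the 10 genes were the same under that scaling.

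**Figure D1:**
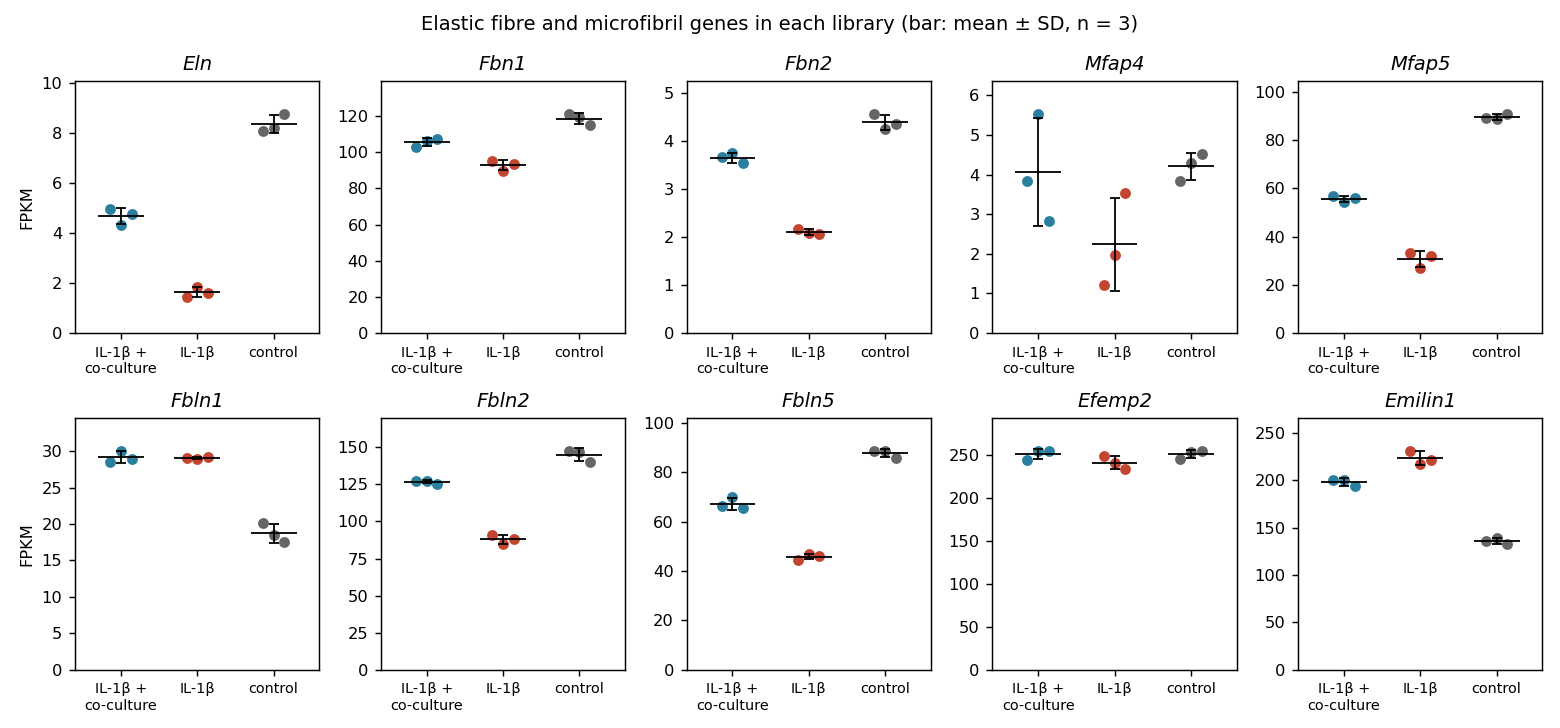
FPKM of each of the 10 genes (vertical axes, from 0) in the co-culture, IL-1β and control libraries. Points are libraries, and bars are the mean ± SD (n = 3). Eln, Fbn1, Fbn2, Mfap5, Fbln2 and Fbln5 are lowest in the IL-1β libraries with co-culture between IL-1β and control, whereas Emilin1 and Fbln1 are lowest in control.

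Elastin itself was a low transcript in these cells. Eln had 4.96, 4.33 and 4.75 FPKM in the co-culture libraries, 1.43, 1.84 and 1.62 FPKM in the IL-1β libraries and 8.08, 8.21 and 8.77 FPKM in the control libraries. The 3 groups did not overlap, and IL-1β libraries were lowest. Lack of overlap was common among all genes tested. It held for 58.3% of them, and for 9 of the 10 genes, between IL-1β and control. Between co-culture and IL-1β it held for 56.7% and 7 of the 10, and between co-culture and control for 37.8% and 8 of the 10. The mean was 1.63 ± 0.205 FPKM with IL-1β and 8.35 ± 0.367 FPKM in control (SD, n = 3 each), a log2 fold change of -1.83 ± 0.07 (SE; limma adjusted p = 1.2e-09). With a smaller pseudocount of 0.1 in place of 1 the log2 fold change was -2.29. In co-culture Eln averaged 4.68 ± 0.321 FPKM, 2.87-fold above IL-1β, with a log2 fold change of 1.11 ± 0.07 (SE; limma adjusted p = 1.8e-07). It was 1.78-fold lower in co-culture than in control (log2 fold change -0.72 ± 0.07, SE, limma adjusted p = 2.8e-05).

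The fibrillins build the microfibril. Fbn1 had 103, 106 and 107 FPKM in the co-culture libraries, 95.1, 89.7 and 93.5 FPKM in the IL-1β libraries and 121, 119.7 and 115 FPKM in the control libraries. Fbn1, the main fibrillin of adult tissues, was thus high in every library, and its groups differed by little without overlapping. Its log2 fold change was -0.35 ± 0.03 (SE; limma adjusted p = 3.4e-06) for IL-1β against control, 0.19 ± 0.03 (SE; limma adjusted p = 0.00069) for co-culture against IL-1β and -0.17 ± 0.03 (SE; limma adjusted p = 0.0041) for co-culture against control. Fbn2 had 3.67, 3.75 and 3.55 FPKM in the co-culture libraries, 2.18, 2.08 and 2.07 FPKM in the IL-1β libraries and 4.57, 4.26 and 4.35 FPKM in the control libraries. Fbn2, a fibrillin best known from development, was a low transcript whose groups did not overlap either. It was 2.08-fold lower with IL-1β than in control, with a log2 fold change of -0.79 ± 0.05 (SE; limma adjusted p = 2.2e-07). In co-culture it was 1.73-fold higher than with IL-1β (log2 fold change 0.58 ± 0.05, SE, limma adjusted p = 4.9e-06). The remaining difference between co-culture and control, -0.21 ± 0.05 (SE; limma adjusted p = 0.019) on the log2 scale, lost its call without co-culture replicate 1 (-0.21, limma adjusted p = 0.055), co-culture replicate 3 (-0.20, limma adjusted p = 0.063) or control replicate 1 (-0.19, limma adjusted p = 0.077), within a range of adjusted p of 0.004 to 0.077 over 17 alternatives.

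The microfibril-associated genes Mfap5 and Mfap4 differed in how well they were measured. Mfap5 had 56.8, 54.3 and 55.9 FPKM in the co-culture libraries, 33.2, 26.8 and 31.9 FPKM in the IL-1β libraries and 89.1, 88.7 and 90.8 FPKM in the control libraries. Mfap5 encodes a glycoprotein that binds fibrillins, and its 3 groups were clearly apart. IL-1β libraries averaged 30.6 ± 3.38 FPKM and control libraries 89.6 ± 1.13 FPKM, a log2 fold change of -1.52 ± 0.06 (SE; limma adjusted p = 2.8e-09). Co-culture was 1.82-fold higher than IL-1β (log2 fold change 0.85 ± 0.06, SE, limma adjusted p = 8e-07) and 1.61-fold lower than control (log2 fold change -0.68 ± 0.06, SE, limma adjusted p = 2e-05). Mfap4 had 3.84, 5.53 and 2.83 FPKM in the co-culture libraries, 1.22, 1.97 and 3.53 FPKM in the IL-1β libraries and 3.84, 4.29 and 4.51 FPKM in the control libraries. Mfap4, whose product binds tropoelastin and fibrillin, thus spread widely within groups, and the co-culture libraries overlapped with both others. Its coefficient of variation was 33.5% in co-culture, 52.6% with IL-1β and 8.11% in control, against at most 12.6% for any other gene of the 10 in any group. The log2 fold change of IL-1β against control was -0.75 ± 0.28 (SE; limma adjusted p = 0.062), with a 95% interval of -1.42 to -0.08. It passed without IL-1β replicate 3, the highest of its group (-1.02, limma adjusted p = 0.0058), without co-culture replicate 2 (-0.75, limma adjusted p = 0.046) and without the trend and robust settings (limma adjusted p = 0.038), in a range of 0.0058 to 0.15 over 17 alternatives. For co-culture against IL-1β it was 0.67 ± 0.28 (SE; limma adjusted p = 0.088), and without IL-1β replicate 3 it was 0.95 (limma adjusted p = 0.009, range over 17 alternatives 0.009 to 0.22).

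The fibulins link elastin to its surroundings. Fbln5 had 66.3, 70.0 and 65.6 FPKM in the co-culture libraries, 44.6, 46.8 and 45.9 FPKM in the IL-1β libraries and 88.8, 88.7 and 85.8 FPKM in the control libraries. Fbln5, which in mice is needed for elastic fibres to form and tethers them to cells, thus followed the order of Eln without overlap between groups. It was 1.92-fold lower with IL-1β than in control (log2 fold change -0.92 ± 0.03, SE, limma adjusted p = 8.7e-10) and 1.47-fold higher in co-culture than with IL-1β (log2 fold change 0.55 ± 0.03, SE, limma adjusted p = 1.7e-07). Against control the co-culture value was -0.38 ± 0.03 (SE; limma adjusted p = 1.5e-05) on the log2 scale. Fbln2 had 127, 127 and 126 FPKM in the co-culture libraries, 91.1, 84.6 and 88.0 FPKM in the IL-1β libraries and 148, 147 and 139.9 FPKM in the control libraries. Fbln2, which encodes a fibulin found beside elastic fibres in vessel walls, had the same order, and its groups did not overlap. Its log2 fold change was -0.72 ± 0.03 (SE; limma adjusted p = 7.9e-09) for IL-1β against control and 0.52 ± 0.03 (SE; limma adjusted p = 2.2e-07) for co-culture against IL-1β. It remained lower in co-culture than in control, by 1.14-fold (log2 fold change -0.19 ± 0.03, SE, limma adjusted p = 0.0021).

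Fbln1, another fibulin of elastic fibres and basement membranes, took a different course. Fbln1 had 28.5, 30.1 and 28.9 FPKM in the co-culture libraries, 29.1, 28.9 and 29.3 FPKM in the IL-1β libraries and 20.2, 18.5 and 17.6 FPKM in the control libraries. The co-culture and IL-1β libraries overlapped, and each was above every control library. Fbln1 was 1.55-fold higher with IL-1β than in control (log2 fold change 0.61 ± 0.05, SE, limma adjusted p = 5.5e-07) and 1.56-fold higher in co-culture than in control (log2 fold change 0.61 ± 0.05, SE, limma adjusted p = 3.3e-06). Between co-culture and IL-1β the log2 fold change was 0.00318 ± 0.05 (SE; limma adjusted p = 0.96), with a 95% interval of -0.10 to 0.11. Its sign turned under median-of-ratios scaling (-0.06) and quantile normalization (-0.06), and it passed the threshold under 0 of 18 alternatives.

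Efemp2 encodes fibulin-4, which brings lysyl oxidase to tropoelastin. Efemp2 had 244, 255 and 254 FPKM in the co-culture libraries, 249, 240.2 and 234 FPKM in the IL-1β libraries and 246, 253 and 255 FPKM in the control libraries. The groups overlapped in every comparison. The log2 fold change was -0.06 ± 0.03 (SE; limma adjusted p = 0.15) for IL-1β against control, with a 95% interval of -0.13 to 0.01. It was 0.06 ± 0.03 (SE; limma adjusted p = 0.16) for co-culture against IL-1β and -0.00126 ± 0.03 (SE; limma adjusted p = 0.98) for co-culture against control. Under quantile normalization Efemp2 passed for IL-1β against control, at -0.15 (limma adjusted p = 0.0034, range over 18 alternatives 0.0034 to 0.77). It also passed there for co-culture against IL-1β, at 0.11 (limma adjusted p = 0.023, range over 18 alternatives 0.023 to 0.88), a sign that median-of-ratios scaling turned to -0.007.

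Emilin1, whose product lies between elastin and microfibrils and in mice restrains the processing of TGF-β, rose. Emilin1 had 200.01, 201 and 194 FPKM in the co-culture libraries, 231, 218 and 222 FPKM in the IL-1β libraries and 136, 139.6 and 133 FPKM in the control libraries. The IL-1β libraries were highest and the control libraries lowest, without overlap between groups. IL-1β libraries averaged 224 ± 7.07 FPKM and control libraries 136 ± 3.49 FPKM, a log2 fold change of 0.71 ± 0.03 (SE; limma adjusted p = 5.4e-09). In co-culture the level fell by 11.4% relative to IL-1β (log2 fold change -0.17 ± 0.03, SE, limma adjusted p = 0.00099) and was 1.46-fold higher than in control (log2 fold change 0.54 ± 0.03, SE, limma adjusted p = 4.8e-07).

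**Figure D2:**
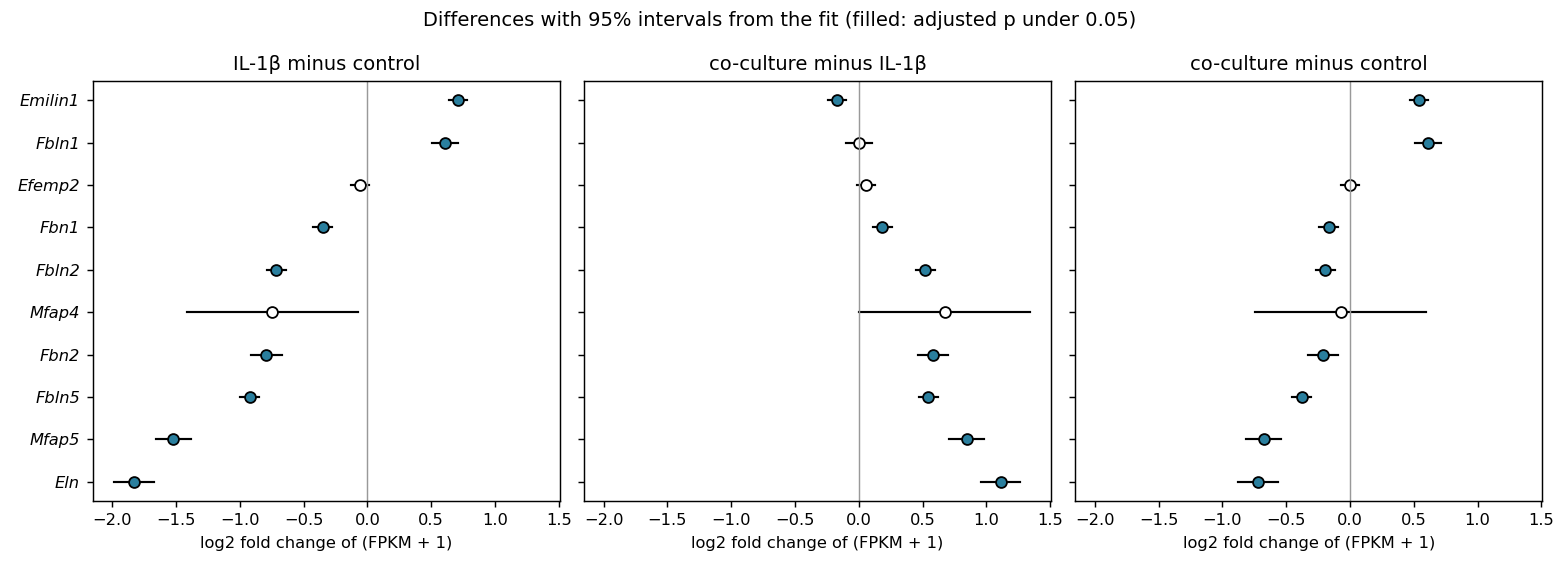
Log2 fold changes of (FPKM + 1) for the 10 genes in the 3 comparisons, with 95% intervals from the limma fit. Filled points have an adjusted p under 0.05. Eln and Mfap5 lie farthest to the left for IL-1β minus control and farthest to the right for co-culture minus IL-1β, Fbln1 lies at 0 in the middle panel, and the interval of Mfap4 is the widest.

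Co-culture was set against IL-1β alone to see how the response differs beside dermal fibroblasts. Eln, Mfap5, Fbn2, Fbln5, Fbln2 and Fbn1 were higher in co-culture, by 2.87-fold for Eln and 1.14-fold for Fbn1, and Emilin1 was lower. Of the 10 genes 6 were higher and 1 lower, where 33.3% of all genes tested were higher and 16.7% lower (50% in all). The median log2 fold change of the 10 was 0.53, and that of all genes was 0.06. Higher genes made up 66.6% of all calls. With libraries scaled by median of ratios the share was 50.8%, from 2721 higher and 2636 lower genes, and with quantile normalization 58.3%, from 3199 and 2289. Against control, 6 of the 10 were lower in co-culture and 2 higher, where 7.91% of all genes were lower and 12.4% higher (20.3% in all). There 61.0% of all calls were of higher genes. Median-of-ratios scaling made this 51.6%, from 1146 higher and 1073 lower genes, and quantile normalization 46.4%, from 1008 and 1166. Under both scalings 6 of the 10 genes were again lower than in control and 2 higher.

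The share of the IL-1β difference that was left in co-culture, both taken against control on the log2(FPKM + 1) scale, is a description, since the comparisons share libraries. It was 26.7% for Fbn2 and 26.9% for Fbln2. Eln, at 39.3%, Fbln5, at 41.0%, Mfap5, at 44.5%, and Fbn1, at 47.4%, kept more. Of the genes that had risen, Emilin1 kept 75.7% and Fbln1 101%.

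Markers of other cell types moved with some of these genes. In bulk RNA, fewer cells of a type and less RNA per cell cannot be told apart. The marker counts below stand beside the shares of all genes tested. These were 20.5% higher and 31.2% lower for IL-1β against control, and 33.3% higher and 16.7% lower for co-culture against IL-1β. Pericyte and smooth muscle markers, of which 7 of 11 passed the filter, summed to 38.0 to 39.0 FPKM in co-culture, 16.2 to 19.0 FPKM with IL-1β and 42.3 to 44.0 FPKM in control, the same order of groups as for Eln and Mfap5. Of the 7, 6 were lower with IL-1β than in control, and in co-culture 6 of the 7 were higher than with IL-1β. Lmod1, part of both counts, averaged 0.397 FPKM with IL-1β and passed the filter only through the other groups. The smooth muscle myosin gene Myh11, the 1 of the 7 with no call in either comparison, was at 1.55 ± 0.0721 FPKM in co-culture, 1.28 ± 0.159 with IL-1β and 1.33 ± 0.181 in control. Chondrocyte markers, 7 of 12 past the filter, summed to 86.6 to 89.2 FPKM in co-culture, 27.1 to 29.6 FPKM with IL-1β and 205 to 220 FPKM in control. This too was the order of groups of Eln and Mfap5. With IL-1β 6 of the 7 were lower and 0 higher than in control. In co-culture 6 of the 7 were higher and 0 lower than with IL-1β. Adipocyte markers, 8 of 10 past the filter, summed to 559 to 585 FPKM in co-culture, 531 to 565 FPKM with IL-1β and 730 to 780 FPKM in control. Of the 8, 6 were lower and 1 higher with IL-1β than in control. In co-culture 5 of the 8 were higher and 2 lower than with IL-1β, changes that partly offset each other in the sum. Macrophage and leukocyte markers, 3 of 11 past the filter, summed to 27.4 to 29.3 FPKM in co-culture, 38.0 to 42.3 FPKM with IL-1β and 27.1 to 29.5 FPKM in control. Of the 3, 2 were higher and 1 lower with IL-1β than in control. Cd14 had 15.8 ± 0.304 FPKM in co-culture, 22.7 ± 0.821 with IL-1β and 13.5 ± 0.585 in control (0.71, limma adjusted p = 7.7e-08, for IL-1β against control), and Cd68 had 2.19 ± 0.439 FPKM in co-culture, 4.77 ± 0.880 with IL-1β and 2.30 ± 0.454 in control (0.80, limma adjusted p = 0.00054). Lyz2, the 1 that was lower, had 7.76 ± 0.761 FPKM in co-culture, 7.99 ± 0.398 with IL-1β and 10.7 ± 0.899 in control (-0.37, limma adjusted p = 0.0013). Among the 8 under the filter, the pan-leukocyte gene Ptprc was at 0.0733 ± 0.0289 FPKM in co-culture, 0.0667 ± 0.0231 with IL-1β and 0.103 ± 0.0231 in control, and the complement gene C1qb was listed at 0 in every co-culture and control library. Other genes of the 8 were higher in every IL-1β library than in every control library. Itgam had 0.55 to 0.76 FPKM with IL-1β and 0.26 to 0.32 in control, and Mrc1 1.29 to 1.73 and 0.51 to 0.84. Cd163 had 0.35 to 0.54 and 0.02 to 0.05, and Adgre1 0.94 to 1.54 and 0.46 to 0.52. Ptprc was lower in every IL-1β library than in every control library, and C1qa, C1qb and Csf1r overlapped between these groups. Keratinocyte and epithelial markers, 2 of 10 past the filter, summed to 3.42 to 4.44 FPKM in co-culture, 1.77 to 2.11 FPKM with IL-1β and 4.95 to 5.14 FPKM in control. Dermal fibroblast markers, 6 of 12 past the filter, summed to 168 to 181 FPKM in co-culture, 459 to 478 FPKM with IL-1β and 110 to 121 FPKM in control, but the members were divided, with 3 of the 6 higher and 3 lower with IL-1β than in control. Sfrp2, the most abundant of them with IL-1β, had 70.9 ± 2.38 FPKM in co-culture, 325 ± 5.29 with IL-1β and 15.2 ± 0.338 in control. Tbx15, on the other side, had 26.3 ± 0.128 FPKM in co-culture, 21.8 ± 0.261 with IL-1β and 28.5 ± 0.245 in control, and Crabp1 had 22.9 ± 2.15 FPKM in co-culture, 15.7 ± 1.00 with IL-1β and 28.0 ± 5.31 in control. The part of these markers in the levels of the 10 genes was not tested.

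The order of the levels per length changed with the groups. Comparing genes with each other is less secure than comparing libraries, because the submitters' processing notes name a mouse build, GRCm38, for rat reads. In control the order by mean FPKM was Efemp2, Fbln2, Emilin1, Fbn1, Mfap5, Fbln5, Fbln1, Eln, Fbn2 and Mfap4. The neighbours Mfap5 and Fbln5, and Fbn2 and Mfap4, overlapped there. With IL-1β, Emilin1 was in place 2, above Fbn1 and Fbln2, whose libraries overlapped, and Mfap5 had the level of Fbln1. Eln had the lowest mean of the 10, but its 1.43 to 1.84 FPKM lay within the 1.22 to 3.53 FPKM of Mfap4. The libraries of Mfap4 also overlapped with those of Fbn2. In co-culture the order was Efemp2, Emilin1, Fbln2, Fbn1, Fbln5, Mfap5, Fbln1, Eln, Mfap4 and Fbn2, and the libraries of Eln overlapped with those of Mfap4, and those of Mfap4 with those of Fbn2.

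The sum of the 10 genes and some of its proportions differed between groups. The 10 genes summed to 838 to 858 FPKM in co-culture, 741 to 778 FPKM with IL-1β and 854 to 872 FPKM in control, so the IL-1β libraries were lowest and the co-culture and control libraries overlapped. Efemp2, the most abundant, made up 29.1% to 30.2% of the sum in co-culture, 31.1% to 32.4% with IL-1β and 28.4% to 29.8% in control. Emilin1 made up 23.0% to 23.9% in co-culture, 29.4% to 29.7% with IL-1β and 15.5% to 16.0% in control. For every 100 FPKM of Fbn1 there were 4.07 to 4.81 FPKM of Eln in co-culture, 1.504 to 2.05 with IL-1β and 6.66 to 7.62 in control. The core transcript was therefore scarcest relative to the scaffold transcript with IL-1β, and the groups did not overlap. The ratio of Fbn1 to Fbn2 was 28.1 to 30.2 in co-culture, 43.1 to 45.2 with IL-1β and 26.5 to 28.1 in control, so co-culture and control adjoined. The ratio of Emilin1 to Fbln5 was 2.87 to 3.02 in co-culture, 4.65 to 5.18 with IL-1β and 1.53 to 1.57 in control. An exact permutation test of 3 libraries against 3 cannot go below a p of 0.10, so none was run on these ratios.

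**Figure D3:**
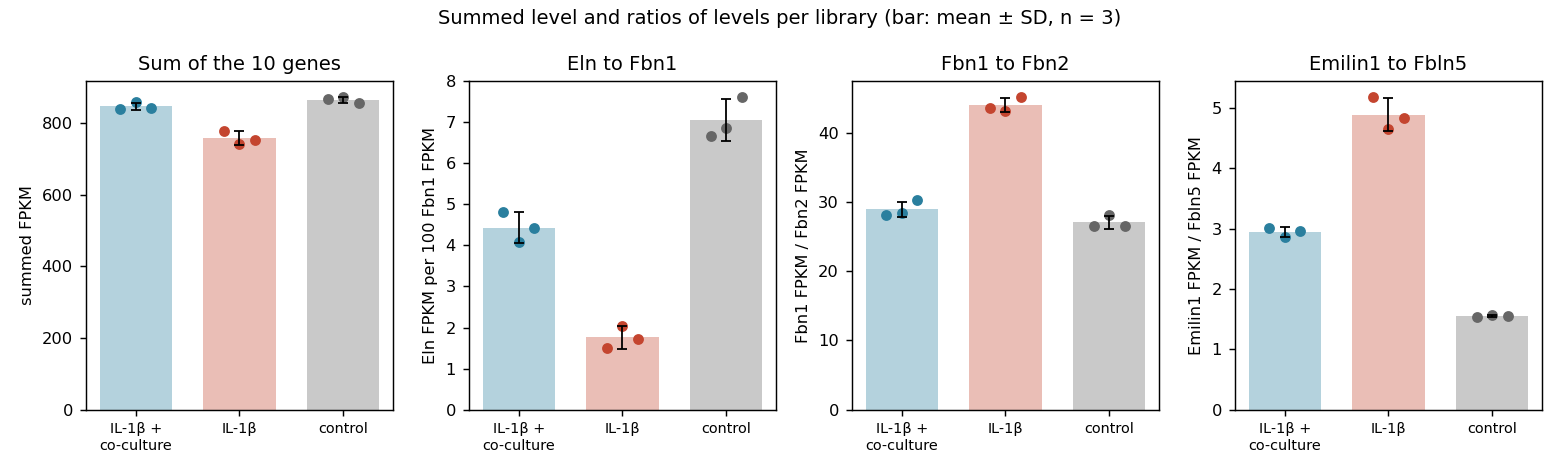
Summed FPKM of the 10 genes and 3 ratios of FPKM (vertical axes, from 0) in the co-culture, IL-1β and control libraries. Points are libraries, and bars with error lines are the mean ± SD (n = 3). The sum is 741 to 778 FPKM with IL-1β and 854 to 872 FPKM in control, whereas Eln per 100 Fbn1 is 1.504 to 2.05 with IL-1β and 6.66 to 7.62 in control.

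Genes with the most similar profiles were sought among all genes tested, by the root mean square difference of log2(FPKM + 1) over the 9 libraries after centring each gene. This measure is a description, and on its scale a low gene can resemble a high one that changes by a smaller fold. For Eln the nearest were Spats2l (0.082), Clec3b (0.083), the gene of tetranectin, and Lmod1 (0.0957), a leiomodin of smooth muscle. Lmod1, which is also 1 of the smooth muscle markers above, had 1.76 ± 0.239 FPKM in co-culture, 0.397 ± 0.0569 with IL-1β and 3.62 ± 0.127 in control. That it shares the order of groups of Eln follows from its choice by nearness in profile. The nearest of the 10 to Eln was Mfap5, at 0.189, which ranked 36 among all genes, so many genes outside the set were closer to Eln than any gene within it. For Mfap5 the nearest were Pgf (0.0711), Col6a2 (0.0789), a chain of the microfibrillar collagen VI, and Clec11a (0.0854). Col6a2 had 237, 238 and 227 FPKM in co-culture, 137, 133 and 133 FPKM with IL-1β and 382, 385 and 367 FPKM in control. For Emilin1 and Fbln1 the lactate transporter gene Slc16a3 was among the 3 nearest of each (0.0475 and 0.0881). Slc16a3 had 189, 189.8 and 186 FPKM in co-culture, 209.5, 203 and 205 FPKM with IL-1β and 130.1, 138 and 135 FPKM in control. Within the set Fbn2 and Fbln2 were the closest pair, at 0.0453, with Fbn2 and Fbln5 at 0.0808 and Emilin1 and Fbln1 at 0.0876.

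The wider elastic fibre pathway was counted from lists of known genes. The counts of each list stand beside the shares of all genes tested, which were 20.5% higher and 31.2% lower for IL-1β against control, and 33.3% higher and 16.7% lower for co-culture against IL-1β. Lysyl oxidases, which crosslink elastin and collagen, were split. Of 5 tested, 3 were lower with IL-1β than in control and 1 higher, and in co-culture against IL-1β 2 were higher and 1 lower. The 1 that rose was Lox, with 731 ± 9.30 FPKM in co-culture, 964 ± 32.4 with IL-1β and 667 ± 13.1 in control (log2 fold change 0.53, limma adjusted p = 6.3e-08, for IL-1β against control and -0.40, limma adjusted p = 1.3e-06, for co-culture against IL-1β). Loxl3 went the other way, with 95.7 ± 2.04 FPKM in co-culture, 45.6 ± 0.836 with IL-1β and 132 ± 1.28 in control (log2 fold change -1.51, limma adjusted p = 2e-12, and 1.05, limma adjusted p = 9.5e-11, in the same comparisons). Loxl1, the oxidase that in mice maintains elastic fibres, was at 124 ± 6.15 FPKM in co-culture, 124 ± 5.09 with IL-1β and 140.0 ± 4.47 in control, lower with IL-1β than in control (-0.17, limma adjusted p = 0.0058) and with no call between co-culture and IL-1β (-0.000624, limma adjusted p = 0.99). Latent TGF-β binding proteins, which share their repeat structure with fibrillins, had 1 of 4 higher with IL-1β and 0 lower. It was Ltbp2, with 188 ± 0.752 FPKM in co-culture, 245 ± 10.8 with IL-1β and 169 ± 4.96 in control, and in co-culture against IL-1β it was the 1 that was lower, with the other 3 higher.

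Among other proteins of microfibrils and elastic fibres, 12 of 17 in the table passed the filter, and 6 were lower and 2 higher with IL-1β than in control. Emilin2, the relative of Emilin1, had 12.1 ± 0.731 FPKM in co-culture, 7.18 ± 0.119 with IL-1β and 16.1 ± 0.669 in control (log2 fold change -1.06, limma adjusted p = 8.5e-09, for IL-1β against control), a fall where Emilin1 rose. The multimerin gene Mmrn2, of the same protein family, had 2.66 ± 0.221 FPKM in co-culture, 1.12 ± 0.0306 with IL-1β and 3.68 ± 0.167 in control (-1.14, limma adjusted p = 4.7e-08). The 2 that rose were the proteoglycan genes Dcn, with 1196 ± 9.64 FPKM in co-culture, 3112 ± 110.1 with IL-1β and 641 ± 4.57 in control (2.28, limma adjusted p = 1.1e-13), and Vcan, whose product binds fibrillin and fibulins, with 232 ± 5.94 FPKM in co-culture, 313 ± 9.50 with IL-1β and 212 ± 5.32 in control (0.56, limma adjusted p = 5.6e-08). Mfap2, Efemp1, Adamtsl2, Adamts17 and Emilin3 were under the filter. In co-culture against IL-1β 4 of the 12 were higher and 2 lower, the 2 being Dcn (-1.38, limma adjusted p = 2e-11) and Vcan (-0.43, limma adjusted p = 9.6e-07).

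Proteases able to degrade elastin changed in both directions. Of 8 that passed the filter, 5 were higher than in control and 2 lower, and in co-culture against IL-1β 2 were higher and 5 lower, where 20.5% and 31.2% of all genes were higher and lower for IL-1β and 33.3% and 16.7% for co-culture. The gelatinase gene Mmp9 had 17.0 ± 1.07 FPKM in co-culture, 621 ± 8.10 with IL-1β and 0.590 ± 0.0346 in control, so it passed the filter only through the groups given IL-1β. The macrophage elastase gene Mmp12 had 7.87 ± 0.0551 FPKM in co-culture, 18.7 ± 1.48 with IL-1β and 4.88 ± 0.101 in control (1.74, limma adjusted p = 1.7e-10, for IL-1β against control and -1.15, limma adjusted p = 1.3e-08, for co-culture against IL-1β), and another gelatinase gene, Mmp2, had 689 ± 8.33 FPKM in co-culture, 1223 ± 21.0 with IL-1β and 567 ± 3.72 in control (1.11, limma adjusted p = 1.7e-11, and -0.83, limma adjusted p = 4.2e-10). The cathepsin gene Ctsl fell, with 1211 ± 31.5 FPKM in co-culture, 896 ± 25.6 with IL-1β and 1388 ± 29.7 in control (-0.63, limma adjusted p = 1.9e-08, for IL-1β against control). Of 6 inhibitor genes 4 were higher with IL-1β and 0 lower, and in co-culture against IL-1β 0 were higher and 3 lower. Slpi, the gene of a secreted inhibitor of leukocyte elastase, had 85.4 ± 6.39 FPKM in co-culture, 562 ± 31.4 with IL-1β and 14.4 ± 0.647 in control (5.19, limma adjusted p = 2e-14, for IL-1β against control). Timp3, an inhibitor bound to the matrix, had 3.27 ± 0.160 FPKM in co-culture, 8.49 ± 0.254 with IL-1β and 4.54 ± 0.122 in control (0.78, limma adjusted p = 1.6e-07, for IL-1β against control and -1.15, limma adjusted p = 8.3e-09, for co-culture against IL-1β).

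Receptors of elastin and microfibrils were divided, with 6 of 11 higher and 3 lower with IL-1β than in control, and 2 higher and 6 lower in co-culture against IL-1β. Of all genes, 20.5% were higher and 31.2% lower in the first of these comparisons and 33.3% higher and 16.7% lower in the other. Itga8, an integrin subunit gene, had 5.72 ± 0.166 FPKM in co-culture, 9.28 ± 0.333 with IL-1β and 4.21 ± 0.117 in control (0.98, limma adjusted p = 1.1e-08, for IL-1β against control). The subunit gene Itgb5 had 112 ± 1.91 FPKM in co-culture, 78.4 ± 2.10 with IL-1β and 119 ± 2.40 in control (-0.60, limma adjusted p = 1.5e-08). Lgals3, which encodes a galectin that binds elastin peptides, had 499 ± 17.6 FPKM in co-culture, 301 ± 18.3 with IL-1β and 605 ± 21.3 in control (-1.01, limma adjusted p = 5.5e-09). Genes of TGF-β signalling, whose latent ligands microfibrils hold, numbered 4 higher and 6 lower of 12 with IL-1β than in control, and 6 higher and 4 lower in co-culture than with IL-1β. Tgfb3 had 39.8 ± 1.28 FPKM in co-culture, 17.1 ± 0.316 with IL-1β and 48.8 ± 0.251 in control (-1.46, limma adjusted p = 1.2e-11), and Tgfb2 had 10.4 ± 0.722 FPKM in co-culture, 6.09 ± 0.126 with IL-1β and 13.0 ± 0.681 in control (-0.98, limma adjusted p = 4.3e-08). Both fell with IL-1β and were higher in co-culture than with IL-1β (1.17, limma adjusted p = 1.7e-10, and 0.69, limma adjusted p = 1.6e-06). Tgfb1, the other ligand gene, had 59.7 ± 2.82 FPKM in co-culture, 68.6 ± 2.45 with IL-1β and 53.6 ± 1.7 in control. It was higher with IL-1β than in control (0.35, limma adjusted p = 2.8e-05). In co-culture it was lower than with IL-1β (-0.20, limma adjusted p = 0.0023). Skil, a repressor of SMAD proteins, rose with IL-1β (0.74, limma adjusted p = 1.8e-07).

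**Figure D4:**
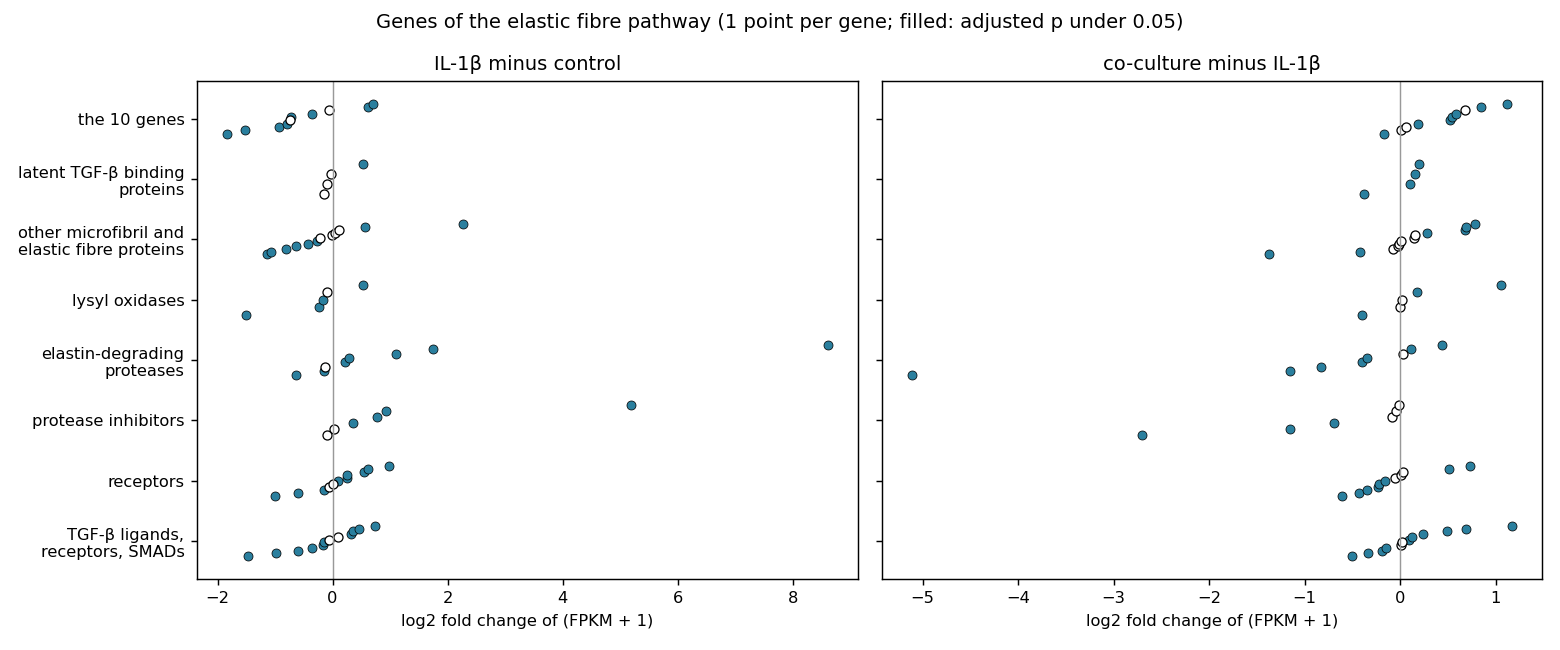
Log2 fold changes of (FPKM + 1) for every tested gene of the 10 and of 7 related lists (rows), for IL-1β minus control and co-culture minus IL-1β. Each point is a gene, filled where its adjusted p is under 0.05, and the vertical offset within a row only separates points. Mmp9 and Slpi lie far to the right in the left panel and far to the left in the right panel, and the axes of the panels differ.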

How the data were processed

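RNA of 9 libraries of rat synovial fibroblasts was sequenced after poly(A) capture, per the labels' protocols. The authors deposited FPKM, per the file headers, with 2 decimals and 1 column per library. The sources used here do not give the aligner, quantifier or annotation. The submitters' processing notes name the build GRCm38, a mouse build, whereas 93.4% of the gene identifiers were found in the rat RefSeq table (GRCr8). Which sequence the reads were aligned to, and whether counting used strand, is not known.

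Libraries were assigned to groups by their titles. No counts were at hand, and the low values of 2096 genes gave no steps of whole reads: 22.0% of their ratios lay within 0.1 of a whole number, so the depth is unknown and precision rests on 3 libraries per group.

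Genes with a mean of at least 1 FPKM were fitted as log2(FPKM + 1) in limma 3.58.1 (R 4.3.3) as group means over all 9 libraries, with empirical Bayes moderation with trend and robust settings. Tests were two-sided, adjusted over 11372 genes. The fit was tested on simulated data. Named beyond the 10 genes were, per list, up to 4 with the smallest p for IL-1β against control, and the 3 genes nearest to a gene in profile. Myh11, Ptprc, C1qb, Itgam, Mrc1, Cd163, Adgre1, C1qa, Csf1r, Cd14, Cd68, Lyz2, Sfrp2, Tbx15, Crabp1 and Tgfb1 were chosen after their values were seen. The 10 genes, the lists and the tests were chosen with earlier results of these data known. Alternatives were other pseudocounts, filters, scalings and fits, a replicate block, and leaving out each library.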

Additional observations from a re-analysis of the deposited data

How the results depend on the processing

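Under 18 alternatives, 162 of 162 counts of calls stayed within 1.5 times the reported count, and 513 of 531 log2 fold changes of the 10 genes kept their direction and their side of the threshold. No called difference changed sign. The 9 that changed sign had not been called. Leaving out each library in turn, the log2 fold change of co-culture against control ranged between -0.0169 and 0.0197 for Efemp2 and between -0.274 and 0.111 for Mfap4, and that of co-culture against IL-1β ranged between -0.0183 and 0.0188 for Fbln1. For co-culture against IL-1β the sign also turned under median-of-ratios scaling for Efemp2 (-0.00733) and Fbln1 (-0.0607), and under quantile normalization for Fbln1 (-0.0557). With a filter of 5 FPKM, Eln, Fbn2 and Mfap4 were not tested, which left 4 lower and 2 higher for IL-1β against control. With a replicate block 5858 genes were called for IL-1β against control, 5708 for co-culture against IL-1β and 2227 for co-culture against control, with no call of the 10 genes changed. Deviations of same-numbered libraries correlated at -0.046 to 0.189 across genes, and those of differently numbered libraries at -0.221 to 0.133. The same-numbered values lay mostly above 0, but the ranges overlapped. Because the labels state no pairing, the main fit did not pair the samples by number, and the replicate block gives the paired form. Depth being unknown, differences of Eln, Fbn2 and Mfap4, at under 10 FPKM, rest on the fewest reads per length.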
